A study of Mus musculus with 17 samples.

Results

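Counts of the miR-375 and miR-7 arms were followed in small RNA libraries of exosomes, small vesicles shed by cells, that had been purified from feces of mice. The arms were chosen by name: every row for miR-375, miR-7a or miR-7b. The table holds 5 such rows among its 1487 small RNAs, namely mmu-miR-375-3p, mmu-miR-375-5p, mmu-miR-7a-2-3p, mmu-miR-7b-5p and mmu-miR-7b-3p, where mmu stands for mouse and is left out below. Another 2 arms that were looked for, miR-7a-5p and miR-7a-1-3p, have no row in the counts used here and were not analysed here. All mice carried a knockout of interleukin 10 (IL-10 KO) on the C57BL/6J background, a model of bowel inflammation, and were supplied at 4 weeks of age. At the start-point 10 libraries came from 10 mice, 7 male and 3 female. At the end-point 7 libraries came from 6 of these mice, with 5 male libraries and 2 female, because end-point libraries 1 and 2 both carry the label of mouse 1. Start-point and end-point libraries share genotype and housing, no wild-type library was analysed here, and the ages at sampling are not given in the sources used here.

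A miRNA hairpin is cut into a 5p and a 3p arm, of which usually one, the guide, is kept by Argonaute and the other, the passenger, is mostly degraded. The guide pairs with target mRNAs through its seed, bases 2 to 8, and lowers their expression. In miR-375 the guide is the 3p arm, a miRNA abundant in pancreatic islets and in enteroendocrine cells, the hormone-secreting cells of the gut epithelium. In miR-7 the guide is the 5p arm, enriched in neurons and endocrine cells and, like miR-375, linked to hormone secretion. Feces can carry RNA shed from any segment of the gut and from pancreatic juice, so an arm in fecal exosomes is not assigned to a cell type by these data.

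The mature sequences below are from RefSeq on GRCm38.p6, 5′ to 3′ with the seed in capitals, and are shown because the counting of miR-7 arms turns on how few bases tell them apart. A sequence was matched for 4 of the 5 measured arms; that of miR-7a-5p, which was not counted here, is given for comparison.
miR-375-5p: gCGACGAGccccucgcacaaac
miR-7a-5p: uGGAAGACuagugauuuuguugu
miR-7b-5p: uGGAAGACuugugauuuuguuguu
miR-7a-2-3p: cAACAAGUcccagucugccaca
miR-7b-3p: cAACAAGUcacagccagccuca
Counted from the 5′ end, miR-7a-5p and miR-7b-5p differ by A10U over 23 shared positions and have the same seed. The passengers miR-7a-2-3p and miR-7b-3p also share a seed and differ at 4 of 22 positions, by C10A, U14C, U16A and A20U. How reads that fit both miR-7 guides were assigned is not given in the sources used here, so miR-7b-5p counts carry that uncertainty. No other miRNA in the table with a matched sequence, 1254 of its 1439 miRNAs, had the seed of miR-375-5p, of miR-7b-5p or of the 2 passengers.

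On GRCm38.p6, Mir375 lies on the minus strand of chromosome 1 at 74900658 to 74900721, between Cryba2, 7514 bases away, and Cfap65, 1349 bases away. Mir7-2, the gene of miR-7a-2-3p, lies on the plus strand of chromosome 7 at 78888277 to 78888373, 7480 bases before Aen. Mir7b lies on the plus strand of chromosome 17 at 56242988 to 56243098, with Fem1a 13711 bases away. None of the 3 overlaps another gene of GENCODE vM21, so each is intergenic there.

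Library totals ran from 87527 to 178075 counts at the start-point and from 32320 to 161862 at the end-point. The libraries of each time point were cut into 2 clusters, a number set in advance. The cut used Spearman correlation of log2 CPM, counts scaled to a library total of 1000000, over all small RNAs except these arms. Start-point libraries 1, 4, 6 and 7, all male, had a mean correlation of 0.766 with each other, and the other 6 had 0.730, against 0.492 between the clusters. The cut was made on these same correlations, so they do not test it. Single pairs overlapped: the highest between the clusters was 0.646, and the lowest were 0.633 within the smaller and 0.581 within the larger. At the end-point the smaller cluster was libraries 1, 3 and 7, the only 3 under 75000 counts. Results are therefore given with and without these libraries. Counts of 1 and 2 occur, and a count of 0 allows a level of up to 3 counts, which corresponds to 16.8 to 34.3 CPM at the start-point, 18.5 to 25.7 CPM in the 4 deeper end-point libraries and 47.0 to 92.8 CPM in the 3 shallow ones; this limit and the 95% Wilson intervals cover counting error only. In bulk material, fewer cells of a type and less RNA per cell cannot be told apart.

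The guide arm miR-375-3p had the highest mean of the 5 arms at the start-point, and it fell between the time points, to a mean close to that of miR-7a-2-3p. At the start-point miR-375-3p had a lowest value of 584 CPM, a median of 1220 and a highest of 7140, with a mean of 2610 ± 2410 CPM (SD, n = 10) that ranked 46 of 1487 small RNAs. At the end-point it had a lowest value of 119 CPM, a median of 303 and a highest of 1010, with a mean of 372 ± 312 CPM (SD, n = 7) and rank 420. Of the 7 end-point libraries, 6 lay below every start-point library, and end-point library 4 lay above 4 of the 10. With TMM factors, which the test uses, 4 of the 7 end-point libraries lay below every start-point library. The log2 fold change, end-point minus start-point, was -2.30 ± 0.75 (SE), with an adjusted p of 0.0212 in edgeR's quasi-likelihood test, adjusted over all 1270 small RNAs tested.

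Of the 5 arms, 4 passed the filter on low counts and 1 of these 4, miR-375-3p, was called at an adjusted p under 0.05. Over all small RNAs tested 33.8% were called, 16.4% lower and 17.4% higher, so a share of 1 in 4 is near the background. Of the 4 tested arms, 0 had time points whose CPM ranges did not overlap, against 5.59% of all small RNAs tested, 5.12% lower at the end-point.

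**Figure D1:**
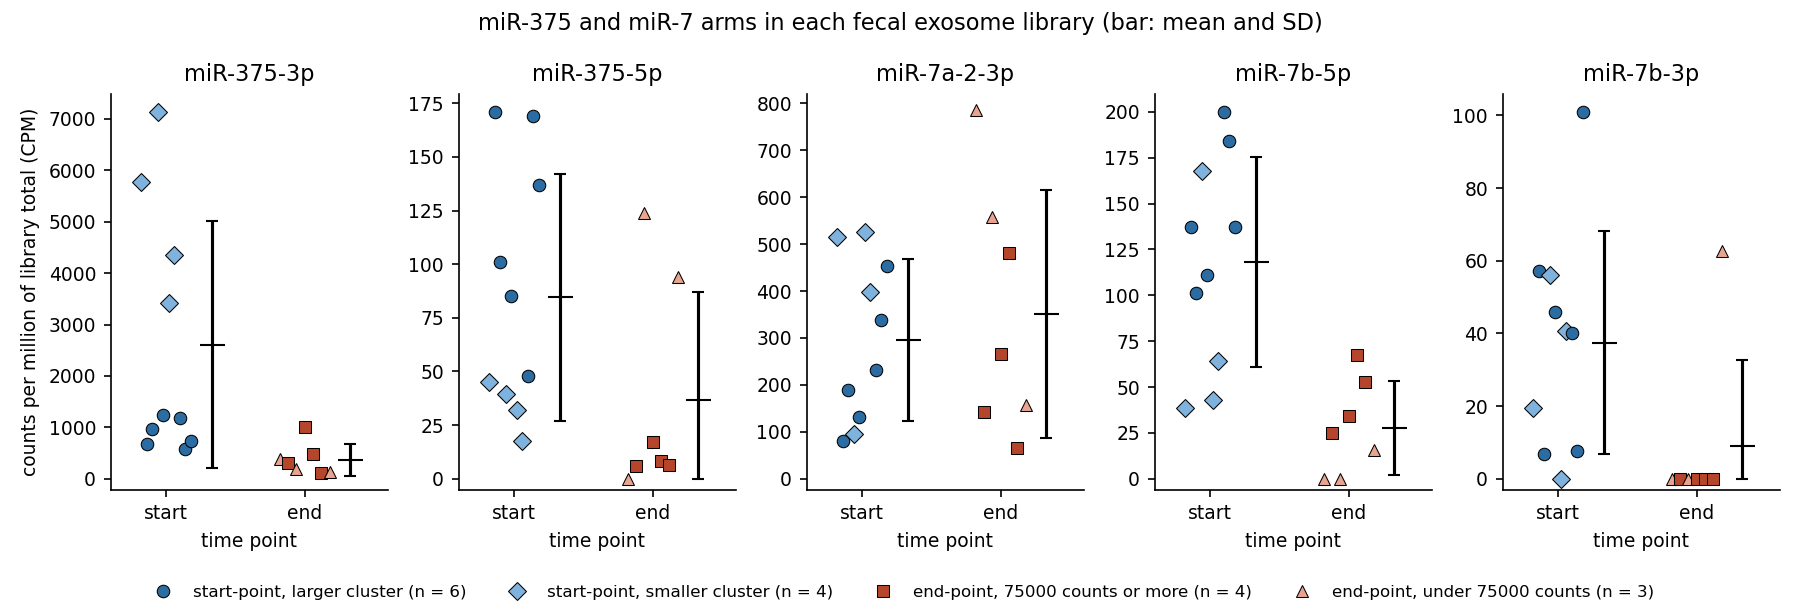
Level of each arm in every library, in CPM of the library total on linear axes that differ between panels; points are libraries, marked by time point and by cluster, and bars give the mean and SD, ended at 0 where the SD passes it. The 4 start-point libraries of the smaller cluster hold 3410 to 7140 CPM of miR-375-3p, above the other 13 libraries, while miR-7a-2-3p covers a like range at both time points.

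The size of the start-point level rested on the 4 libraries of the smaller cluster. They held 5770, 7140, 3410 and 4350 CPM of miR-375-3p in libraries 1, 4, 6 and 7, a mean of 5170 ± 1630 CPM (SD, n = 4). The other 6 start-point libraries held 584 to 1240 CPM, a mean of 901 ± 275 CPM (SD, n = 6). These ranges do not overlap, and the counting error is small beside the gap, with 95% Wilson intervals of 3060 to 3810 CPM in library 6 and 1070 to 1430 CPM in library 5. Since the clusters come from the same libraries, no test is given; CPM ranges did not overlap between the clusters for 22.5% of the small RNAs tested, and 3.78% were higher in the smaller cluster without overlap. Among the tested arms, 2 of 4 showed no overlap, miR-375-3p, higher in the smaller cluster, and miR-375-5p, lower there. With TMM factors the clusters still did not overlap for miR-375-3p, at 3590 to 7560 CPM against 348 to 1180, but they did for miR-375-5p, at 22.7 to 56.0 CPM against 32.3 to 133.

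Without the smaller start-point cluster, the time point difference of miR-375-3p was not called in edgeR. Its log2 fold change was -0.16 ± 0.62 (SE), with an adjusted p of 0.871 with TMM factors. The same libraries with library totals only gave -1.27 ± 0.55 (SE) and an adjusted p of 0.0744. The scaling moves all small RNAs here, since the median of all log2 fold changes was 0.16 with TMM factors and -0.66 with totals only; relative to that median, miR-375-3p was lower in both. Without the 3 end-point libraries under 75000 counts, the log2 fold change was -1.53 ± 0.87 (SE) with an adjusted p of 0.179. Without end-point library 7, which held 125 CPM from 8 counts, it was -1.97 with an adjusted p of 0.0594.

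Within mice, miR-375-3p was lower at the end-point in 6 of the 6 mice with both time points on library totals, and in 5 of 6 with TMM factors. It went from 5770 CPM to a mean of 343 CPM over both end-point libraries in mouse 1, from 972 to 186 in mouse 3 and from 4350 to 481 in mouse 7. Mouse 5 went from 1240 to 1010 CPM, with overlapping 95% Wilson intervals of 1070 to 1430 and 843 to 1210 CPM, and with TMM factors it turned to a rise, from 1180 to 1830 CPM. The female mice went from 1190 to 119 CPM in mouse 9 and from 584 to 125 CPM in mouse 11. Of the 4 mice outside the smaller start-point cluster, mice 3, 9 and 11 were lower under both scalings and mouse 5 on library totals only. The end-point libraries of mice 3 and 11 were under 75000 counts and held 6 and 8 counts of miR-375-3p. Their 95% Wilson intervals, 85.1 to 405 and 63.5 to 247 CPM, lay below the start-point values of these mice. On library totals 20% of all small RNAs tested were lower in every one of these 6 mice, by the mean of log2(CPM + 10). With mouse as a block in edgeR the log2 fold change was -2.37 ± 0.67 (SE) with an adjusted p of 0.0466, where 8.35% of small RNAs were called and 4.49% were called lower. With end-point library 2 left out as well, the value was -2.38 and the adjusted p 0.0726; with that library taken as mouse 2, the number in its title, -1.92 and 0.111.

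**Figure D2:**
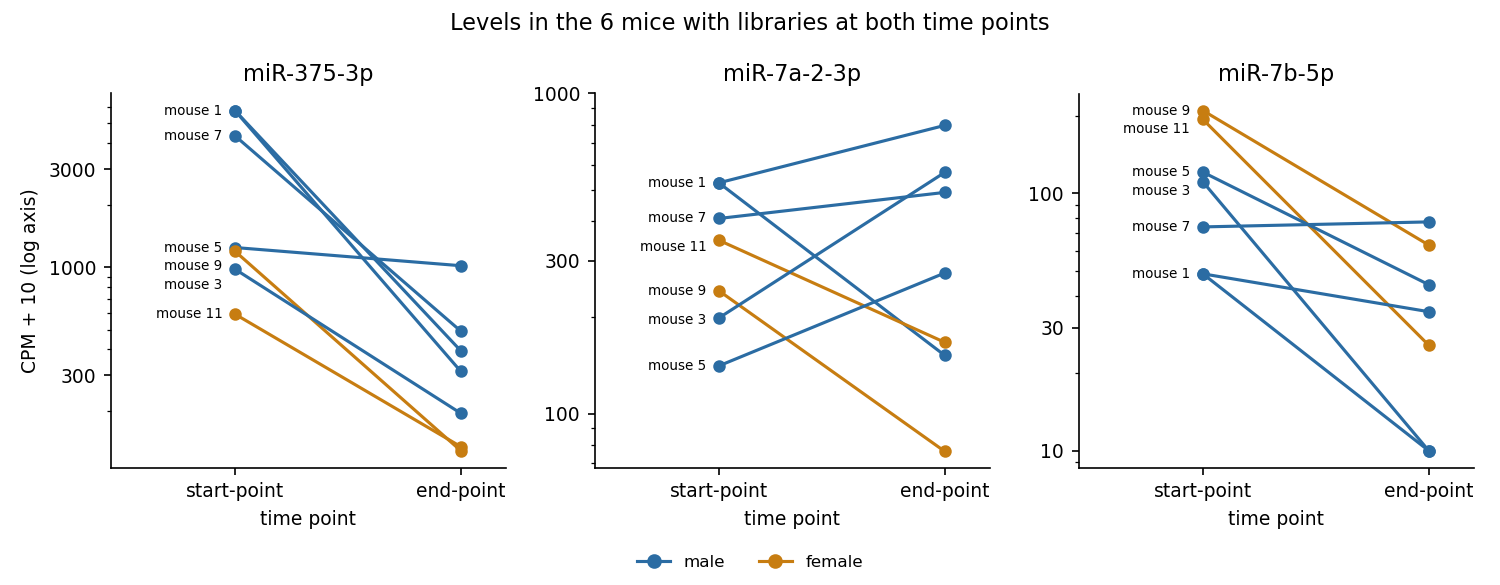
Levels of 3 arms in the 6 mice with libraries at both time points, as CPM + 10 on log axes that differ between panels; each line joins a start-point library to an end-point library of the same mouse, mouse 1 has 2 lines, and blue marks males and orange females. On these library totals all lines fall for miR-375-3p, by least in mouse 5, whose line would rise with TMM factors, while for miR-7a-2-3p the lines of mice 9 and 11 fall and those of mice 3, 5 and 7 rise. The 2 lines of mouse 1 for miR-7a-2-3p go opposite ways.

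The passenger arm miR-375-5p was rare. Start-point libraries held 3 to 22 counts of it, or 17.5 CPM at the lowest, 66.6 at the median and 171 at the highest. In end-point libraries it had 0 to 6 counts, or 0 CPM at the lowest, 8.44 at the median and 124 at the highest. End-point libraries 3 and 7, both shallow, held 124 and 94.0 CPM from 4 and 6 counts, while the 4 deeper end-point libraries held 1 or 2 counts each. The log2 fold change was -1.0 ± 0.63 (SE) with an adjusted p of 0.217 in edgeR, so the arm was not called. Without the libraries under 75000 counts it was -1.85 ± 0.57 (SE) and was called, with an adjusted p of 0.0146.

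The arms of miR-375 did not follow each other at the start-point. On library totals the libraries with most miR-375-3p had the least miR-375-5p: in the smaller cluster miR-375-5p was at 17.5 to 45.2 CPM, and in the other 6 libraries at 48 to 171 CPM. As a share of both arms, miR-375-3p made up 99.1 to 99.6% in the smaller cluster and 77.6 to 96.1% in the other 6. The lowest start-point share, in library 9, had a 95% Wilson interval of 68.3 to 84.7%, and that of library 4 was 99.5%, with 98.9 to 99.7%. The lowest end-point share was 57.1% in library 7, from 8 and 6 counts, and in library 1 all 21 counts were miR-375-3p. The log2 ratio of 3p to 5p counts, with 0.5 added to each, averaged 4.62 ± 2.33 over start-point libraries (SD, n = 10) and 3.69 ± 2.30 over end-point libraries (SD, n = 7). The difference of -0.93 did not pass an exact two-sided permutation test over 19448 arrangements, with a p of 0.422. Its direction turned without the libraries under 75000 counts, to 0.25, and without the smaller start-point cluster, to 0.74.

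**Figure D3:**
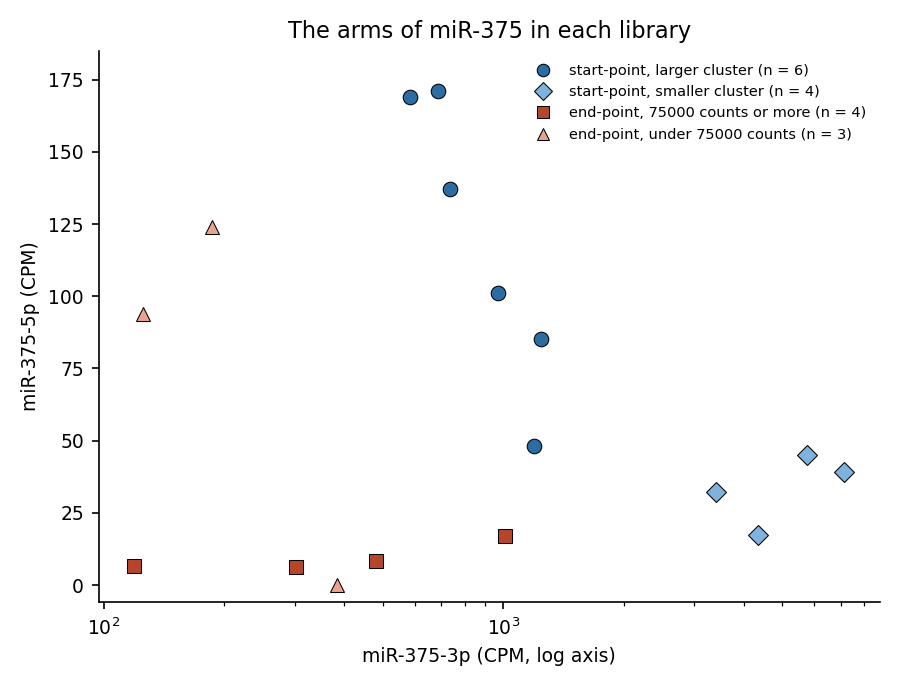
The 3p guide and 5p passenger of miR-375 in each of the 17 libraries, in CPM of the library total, with miR-375-3p on a log axis; points are libraries, marked by time point and cluster. Start-point libraries run from upper left to lower right, and the deeper end-point libraries lie along the bottom with 1 or 2 miR-375-5p counts.

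The miR-7 family was represented by the guide of miR-7b and by passengers. The best counted was miR-7a-2-3p, the passenger made from Mir7-2 alone, whereas miR-7a-5p can come from Mir7-1 and Mir7-2. It had 80.0 CPM at the lowest, 285 at the median and 526 at the highest start-point library, and 66.2, 265 and 785 CPM at the end-point. The start-point mean was 296 ± 173 CPM (SD, n = 10) and the end-point mean 351 ± 264 CPM (SD, n = 7), and 1 end-point library lay below every start-point library, or 0 with TMM factors. Its log2 fold change was 0.49 ± 0.48 (SE) with an adjusted p of 0.444 in edgeR, a difference within the spread between libraries. Without the smaller start-point cluster it was 1.38 ± 0.47 (SE) and was called, with an adjusted p of 0.0337, but with library totals only in the same libraries it was 0.54 with an adjusted p of 0.494. Within mice it was lower at the end-point in 3 of 6 and higher in 3: the largest ratio was in mouse 3, from 189 to 557 CPM, and the lowest in mouse 9, from 232 to 66.2 CPM. Mouse 1, at 516 CPM, counted as lower by the mean of end-point libraries 1 and 2, at 785 and 142 CPM. With library 2 taken as mouse 2, which started at 80.0 CPM, both mice would be higher on library totals. With TMM factors mouse 1 would then still be lower, from 640 to 590 CPM.

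The guide miR-7b-5p was low in every library. It had 38.7 CPM at the lowest, 124 at the median and 200 at the highest start-point library, from 4 to 30 counts. At the end-point it had 0, 24.7 and 67.5 CPM, from 0 to 8 counts, and 5 of 7 end-point libraries lay below every start-point library, or 3 of 7 with TMM factors. The start-point mean was 119 ± 57.3 CPM (SD, n = 10), and the end-point mean was 27.9 ± 25.7 CPM (SD, n = 7). The log2 fold change of -1.12 ± 0.61 (SE) had an adjusted p of 0.155 in edgeR and was not called. With library totals only it was -1.92 ± 0.63 (SE) and was called, with an adjusted p of 0.0171; the median over all small RNAs was then -0.67, against -0.18 with TMM factors.

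On library totals, shallow and deeper end-point libraries were both low in miR-7b-5p. Of the shallow ones, libraries 1 and 3 held 0 counts and library 7 held 1, and the counts of 0 allow up to 54.8 and 92.8 CPM, a range that includes the lowest start-point values. The 4 deeper end-point libraries averaged 44.9 ± 19.1 CPM (SD, n = 4) on library totals. Libraries 2 and 4 among them, at 24.7 and 34.2 CPM, also lay below every start-point library. With TMM factors the deeper libraries held 62.1 to 92.1 CPM, all above the lowest start-point value of 45.1 CPM. The 3 end-point libraries below every start-point library were then the shallow ones. Without the libraries under 75000 counts the log2 fold change was -0.30 ± 0.38 (SE) with an adjusted p of 0.554. Within mice the arm was lower at the end-point in 5 of 6, and mouse 7 went from 64.1 to 67.5 CPM.

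The passenger miR-7b-3p did not pass the filter on low counts. Start-point libraries held 0 to 14 counts of it, 53 in all, with a lowest value of 0, a median of 40.4 and a highest of 101 CPM. At the end-point 6 of 7 libraries held 0 counts, and library 7 held 4. In the 4 deeper end-point libraries a count of 0 allows up to 18.5 to 25.7 CPM, below 6 of the 10 start-point values. Fitted without a filter, its log2 fold change was -1.89 ± 1.10 (SE) with an adjusted p of 0.182 in edgeR.

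**Figure D4:**
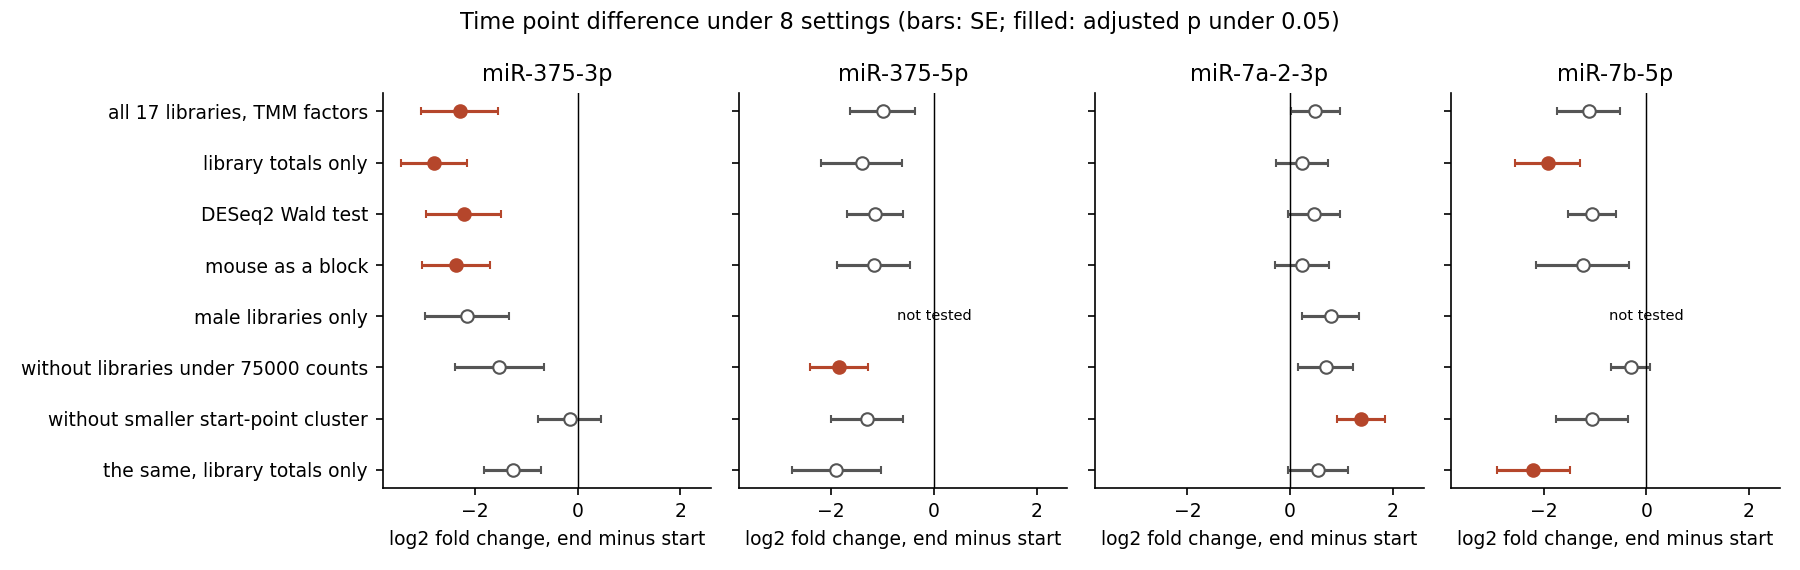
Log2 fold change, end-point minus start-point, of the 4 tested arms under 8 settings; bars are SE, filled points have an adjusted p under 0.05, and arms that failed a setting's filter are marked as not tested. The call of miR-375-3p is lost in male libraries only, without the shallow libraries and, with either scaling, without the smaller start-point cluster, while miR-7b-5p is called in both fits with library totals only, miR-375-5p without the shallow libraries and miR-7a-2-3p without the smaller cluster with TMM factors.

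Sex was not balanced over the start-point clusters, since the 3 female start-point libraries were all in the larger one. Male start-point libraries averaged 3370 ± 2530 CPM of miR-375-3p (SD, n = 7), and the female ones averaged 837 ± 317 CPM (SD, n = 3). Male end-point libraries averaged 473 ± 319 CPM (SD, n = 5), and the female pair held 119 and 125 CPM. With time point in the model, the log2 fold change of females against males was -2.70 ± 0.71 (SE), with an adjusted p of 0.396 in edgeR and of 0.00318 in DESeq2. With library totals only it was -1.99 ± 0.61 (SE), with an edgeR adjusted p of 0.33. The scaling again moved all small RNAs, whose median was -0.06 with TMM factors and 0.48 with totals only. The sex fits took all 17 libraries as independent, although 6 mice had libraries at both time points. Their SE, p and counts of calls do not allow for these repeated mice. In edgeR 0 of 1462 small RNAs were called for sex (0%), with 141 at an unadjusted p under 0.05, and DESeq2 called 35. Without the smaller cluster the value for miR-375-3p was -1.50 ± 0.67 (SE), with an edgeR adjusted p of 0.983. In the same libraries with totals only it was -0.98 ± 0.62 (SE), with an edgeR adjusted p of 0.987. The 3 male libraries of the larger cluster held 965 ± 276 CPM (SD, n = 3) at the start-point, a range of 686 to 1240 CPM that overlaps that of the females, 584 to 1190 CPM.

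The other arms were nearer between the sexes. The log2 fold changes of females against males were -1.13 ± 0.52 (SE) for miR-7a-2-3p, with an adjusted p of 0.515, 0.32 ± 0.66 for miR-375-5p and 0.09 ± 0.64 for miR-7b-5p, all in edgeR. The largest interaction of sex and time point among the arms was that of miR-7a-2-3p, at -1.48 ± 1.00 (SE) with an edgeR adjusted p of 0.809. Its end-point mean was 446 ± 252 CPM in male libraries (SD, n = 5), and the female pair held 66.2 and 157 CPM. The interaction called 0 of 1462 small RNAs in edgeR (0%), with 93 at an unadjusted p under 0.05, and DESeq2 called 2. In simulated counts that test recovered 0% of changed small RNAs. Those counts had the same dispersion for all small RNAs and no library clusters or shared mice. In the data edgeR called 1 small RNA without the smaller start-point cluster. The 0 calls, with 2 female end-point libraries, are therefore not read as absence of a difference.

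Lists of miRNAs linked to other cell types were read beside the arms. The endocrine and neuronal list holds miRNAs such as miR-9 and miR-124, abundant in neurons, and miR-184-3p and the miR-182 and miR-183 pair, present in islets. Of its 10 members 7 were in the table and 6 tested, and edgeR called 0, with 1 at an unadjusted p under 0.05 and 0 called by DESeq2. Their median log2 fold change was 0.46, against -0.18 over all small RNAs tested, and miR-182-5p, the best counted, had -0.45 ± 0.58 (SE).

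For the exocrine pancreas, which also drains into the gut, 2 of 3 listed miRNAs were tested. Of these miR-216a-5p rose, by 1.44 ± 0.53 on the log2 scale (SE), with an adjusted p of 0.0376 in edgeR, and 0.125 without the libraries under 75000 counts. Its mean went from 666 ± 486 CPM (SD, n = 10) at the start-point to 1840 ± 1760 CPM at the end-point (SD, n = 7). The other, miR-217-5p, had -0.89 ± 0.57 (SE) and was not called. With mouse as a block, 0 of these 2 were called.

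Among general epithelial miRNAs, 3 of 7 tested rose, 2 fell and 2 were not called, where 33.8% of all small RNAs tested were called, and their median log2 fold change was -0.51, against -0.18 over all. Those lower were miR-192-5p (-2.77) and miR-194-5p (-2.31), close in size to miR-375-3p, and those higher were miR-141-3p (2.86), miR-200b-3p (3.28) and, highest of the list, miR-215-5p (3.51). Without the smaller start-point cluster, where miR-375-3p had -0.16, miR-192-5p had -2.40 and miR-194-5p -2.76, and edgeR called both. With library totals only, miR-200b-3p was not called, with an adjusted p of 0.0782. Of 4 leukocyte miRNAs tested, miR-223-3p rose (2.38) and miR-342-3p fell (-1.60). Of 3 smooth muscle miRNAs, miR-143-3p rose (2.87) and miR-133a-3p fell (-1.94, but -0.15 and not called without the smaller start-point cluster). The 1 red cell miRNA tested, miR-486a-5p, had -1.27 and was not called. With mouse as a block edgeR called 0 epithelial, 0 leukocyte and 1 smooth muscle miRNA, and 8.35% of all small RNAs tested.

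The lists' summed levels overlapped between the start-point clusters. Overlap was the usual outcome, since CPM ranges did not overlap for only 22.5% of single small RNAs tested. A sum is led by the most abundant miRNAs of its list, so it is not a like measure to the single arm miR-375-3p. Leukocyte miRNAs summed to 1250 to 3690 CPM in the smaller cluster and 911 to 2270 CPM in the larger, and epithelial ones to 5070 to 11000 and 2030 to 18700 CPM. Endocrine and neuronal miRNAs summed to 1170 to 2010 and 983 to 1660 CPM. All listed miRNAs in the table had counts at both time points. The part of these cell types in the miR-375-3p values of the smaller cluster was not tested.

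**Figure D5:**
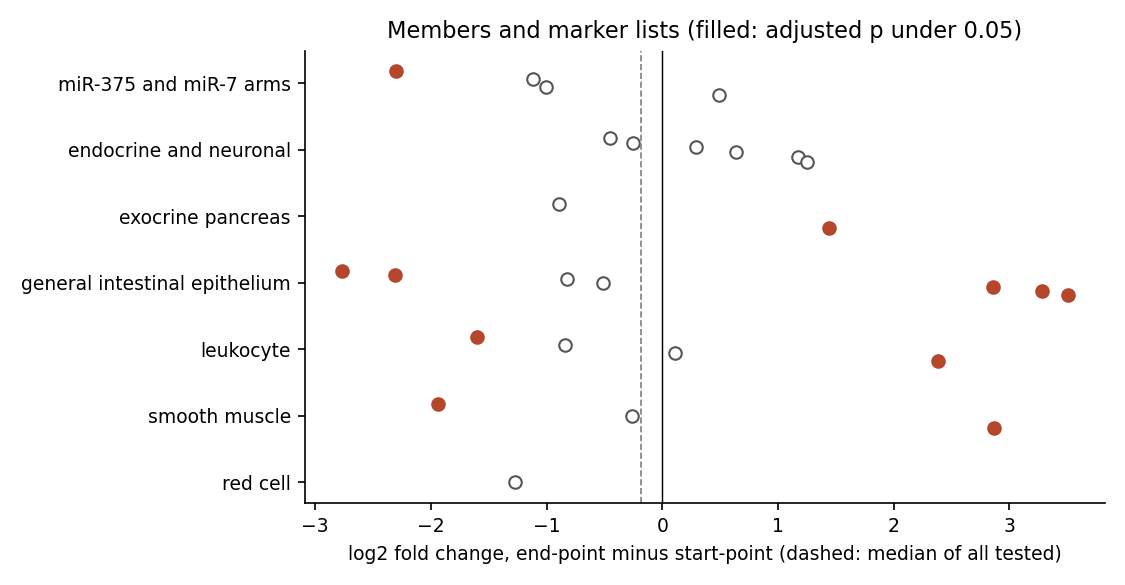
Log2 fold change, end-point minus start-point, of the tested miR-375 and miR-7 arms and of the tested members of 6 marker lists; each point is 1 miRNA, filled where the edgeR adjusted p is under 0.05, and the dashed line is the median of all small RNAs tested, -0.18. The 6 endocrine and neuronal miRNAs lie between -0.45 and 1.25 with no filled point. The point of miR-375-3p lies beside the 2 epithelial miRNAs called lower, while 3 of that list were called higher.

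The small RNAs most like miR-375-3p over the 17 libraries, by Spearman correlation of log2 CPM among 1266 compared, were miR-6344 (0.931), miR-7002-3p (0.924) and miR-298-5p (0.870). Of these miR-6344 fell, with a log2 fold change of -1.86 and adjusted p of 0.0247 in edgeR; start-point libraries averaged 278 ± 109 CPM (SD, n = 10), end-point ones 45.9 ± 40.2 CPM (SD, n = 7). The other 2 had -0.42 and -0.90 and were not called. In the order named, the 3 correlations were 0.87, 0.87 and 0.84 within the start-point and 0.99, 0.96 and 0.79 within the end-point. Unlike miR-375-3p, none was higher in the smaller start-point cluster without overlap on library totals. Their lowest values there were 183, 1180 and 612 CPM, against highest values of 408, 1510 and 663 CPM in the larger cluster. For miR-7a-2-3p the highest values over the 17 libraries were lower, with miR-7685-5p (0.718), miR-138-2-3p (0.679) and miR-6995-5p (0.662). Within the start-point these had 0.94, 0.70 and 0.79, and within the end-point 0.50, 0.75 and 0.79. These correlations share the libraries, their depth, their scaling factors and the clusters described above, and are descriptions of these libraries.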

How the data were processed

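The authors deposited whole-number counts per small RNA and library, without normalization. Per the labels' protocols, exosomes were precipitated from filtered fecal homogenate and libraries were made with the QIAseq miRNA kit, which attaches unique molecular identifiers; whether these were used to remove PCR copies of the deposited counts, and the aligner and counting tool, are not given in the sources used here. Per the submitters' processing notes, bcl2fastq and the build GRCm38 were used. PCR copies would add to the spread between libraries.

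Counts were tested with edgeR 4.0.16 in R 4.3.3: TMM factors, filterByExpr, glmQLFit in its current mode (no separate dispersion step) and glmQLFTest, with Benjamini-Hochberg adjustment over all small RNAs tested and a call at an adjusted p under 0.05. An SE is the log2 fold change divided by the square root of F. Models used time point alone, sex with time point, and their interaction. These models took libraries as independent, including those of the same mouse. Alternatives used DESeq2 1.42.0, limma 3.58.1, other factors, filters and libraries, and mouse as a block. Mouse identity in the labels pairs the libraries; the deviations of same-mouse libraries from their time point's mean correlated at 0.094 on average (7 pairs, -0.072 to 0.260). No pair of libraries agreed within sampling noise, the lowest chi-square over its degrees of freedom being 8.93 among 136 pairs. The labels give separate mice, apart from mouse 1 at the end-point, whose libraries may not be independent. Library clusters came from complete linkage, cut at 2 clusters per time point by setting, with the arms left out. In simulated counts for 1270 small RNAs the time point test recovered 76.7% of those changed by 2 on the log2 scale and 98.0% of those changed by 3, with 5.2% of calls false. The simulated libraries were independent, with the same dispersion for all small RNAs and without the library clusters or shared mice of the data. These rates are therefore not the error rates of the calls reported here.

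The arms, lists and tests were chosen with earlier results of these data known. Named besides the arms are called members of the lists, up to 5 each, and the 3 small RNAs most like miR-375-3p and miR-7a-2-3p, the latter taken in place of miR-7a-5p. Planned comparisons of miR-7a-5p with miR-7b-5p, with its passengers and with miR-375-3p were not made, as it has no row in the counts used here.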

Additional observations from a re-analysis of the deposited data

Results flagged for a closer look

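In 2 of the 12 groups of libraries checked, the highest library lay far from the rest of its group; chance flags about 1 in 20 groups. For miR-375-3p at the end-point, library 4 of mouse 5 held 1010 CPM, and the next highest held 481 CPM. Without that library the log2 fold change of miR-375-3p was -2.85, with an edgeR adjusted p of 0.00898. For miR-7b-3p at the end-point, library 7 held 62.6 CPM from 4 counts, and the other 6 libraries held 0. With 6 libraries at 0, any count in the remaining library would be flagged, so the rate of 1 in 20 does not apply to this group.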

How the results depend on the processing

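The time point test called 429 small RNAs, 51.5% of them higher. The count moved most with a replicate block on mouse (106, with 85 when end-point library 2 was left out and 114 when it was taken as mouse 2) and in male libraries only (207); leaving out single libraries gave 362 to 464. Higher calls made up 31.2% with library totals only, 33.5% in limma-voom, 66.7% in male libraries, 63.6% without the smaller start-point cluster and 25.9% without it and with totals only.

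For miR-375-3p, 11 of 17 alternatives kept the call. It was lost in male libraries (-2.15, adjusted p 0.0778), without the libraries under 75000 counts (-1.53), without the smaller start-point cluster (-0.16, and -1.27 with totals only) and in the replicate block fits with end-point library 2 left out (-2.38) or taken as mouse 2 (-1.92). Leaving out single libraries gave -2.85 to -1.97, with the call lost for 1 of 17. The block changed no call of the other arms. The miR-375 arm balance was -1.23 with the replicate block, p = 0.156 by exact permutation of signs, -0.93 without it, and -1.25 to -0.38 without single libraries. It reversed to 0.25 without the shallow libraries and to 0.74 without the smaller start-point cluster.

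The sex test called 0 small RNAs, 1 with library totals only, upper quartile factors, or totals only without the smaller cluster, 35 in DESeq2, and 0 to 1 without single libraries. The interaction called 0, 2 in DESeq2 and without the shallow libraries, 1 without the smaller cluster, and 0 to 1 without single libraries. Values that reversed, none past the threshold, were those for sex of miR-375-5p (-0.19 without the shallow libraries, -0.18 to 0.57 without single libraries) and miR-7b-5p (-0.13 to 0.36 without single libraries). For the interaction they were those of miR-375-5p (-0.88 without the shallow libraries, -1.33 to 1.57 without single libraries), miR-7b-5p (0.16 in limma-voom, 0.01 without the shallow libraries, 0.04 without the smaller cluster, -1.77 to 0.54 without single libraries) and miR-375-3p (-1.58 without the smaller cluster, -1.75 with totals only). The causes were not tested. The alternatives without the smaller start-point cluster, the earlier edgeR pipeline and levels with TMM factors were chosen after seeing the data. Some alternatives gave miR-375-5p and miR-7b-5p no adjusted p, through their filter or DESeq2's own. Depth limits miR-375-5p, miR-7b-5p and miR-7b-3p in the 3 shallow libraries.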
